A study of Mus musculus with 60 samples.

Results

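The levels of 10 endothelial genes were followed across 15 mouse tissues: Kdr, Flt1, Tek, Tie1, Cdh5 and Pecam1, which most blood vessels share, Plvap of fenestrated vessels, Stab1 and Stab2 of sinusoids, and Lyve1 of lymphatic vessels. They were chosen by symbol from the 54532 genes of the deposited count table, with no threshold on their values, and all 10 were among the 18562 genes with enough reads to be tested. Each of the 15 groups was 1 tissue with 4 libraries, 60 in all: bone marrow, brain, colon, female reproductive tract, heart, inguinal lymph node, kidney, liver, lung, mesenteric lymph node, blood, skin, small intestine, spleen and thymus. All groups came from female C57BL6/J mice aged 6 weeks that had been perfused through the heart with saline and EDTA. The blood samples carry the name of the mononuclear fraction in their titles and whole blood in their tissue label. RNA was taken from whole organs and primed with oligo(dT), which gives reads near the 3′ ends, and no sorted endothelium was measured. In such bulk RNA, fewer endothelial cells and less RNA per cell cannot be told apart. The labels do not say which replicates came from 1 animal, so p-values measure the spread between these libraries.

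Endothelial cells line every vessel, and the wall they build differs by organ. Capillaries of brain, heart, lung and muscle have a continuous lining, sealed in brain by tight junctions. Those of gut and endocrine glands, and many of those in kidney, have pores closed by diaphragms. The sinusoids of liver, spleen and bone marrow have open gaps and take up waste from the blood. KDR and FLT1 are receptors for vascular endothelial growth factors (VEGF), of which KDR carries most of the growth signal and FLT1 also acts as a trap for the ligand. TEK is the angiopoietin receptor and TIE1 its partner without a ligand of its own. Cadherin 5 (VE-cadherin) and PECAM1 hold neighbouring endothelial cells together, PLVAP forms the diaphragms of fenestrae and caveolae, stabilin 1 and stabilin 2 are scavenger receptors, and LYVE1 binds hyaluronan on lymphatic and some sinusoidal endothelium.

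Promoter sequences in RefSeq (build GRCm38.p6, the mm10 assembly) matched 6 of the 10 genes: Kdr, Flt1, Tek, Tie1, Stab1 and Stab2. The 250 bases before the RefSeq start site are shown for the 2 VEGF receptors, whose ranks part in brain, and for the angiopoietin receptor and its partner, which differ in the same motif. RefSeq starts can differ from the gene bounds of GENCODE used elsewhere, and the Tie1 window lies mostly inside the gene by those bounds. Capitals mark GGAAG on either strand, 1 form of the core of sites for ETS factors, a family with known roles in endothelial transcription.
Kdr (chr5:75978456-75978705, minus strand): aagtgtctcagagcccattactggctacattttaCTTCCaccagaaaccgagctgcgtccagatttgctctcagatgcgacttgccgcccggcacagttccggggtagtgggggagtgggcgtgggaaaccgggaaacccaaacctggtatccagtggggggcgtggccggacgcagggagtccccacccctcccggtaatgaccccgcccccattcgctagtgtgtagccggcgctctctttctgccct
Flt1 (chr5:147726012-147726261, minus strand): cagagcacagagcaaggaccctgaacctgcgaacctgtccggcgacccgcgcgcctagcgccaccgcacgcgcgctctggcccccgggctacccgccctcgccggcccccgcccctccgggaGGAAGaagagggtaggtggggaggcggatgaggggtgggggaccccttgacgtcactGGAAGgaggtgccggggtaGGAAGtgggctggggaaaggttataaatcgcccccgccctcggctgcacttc
Tek (chr4:94739039-94739288, plus strand): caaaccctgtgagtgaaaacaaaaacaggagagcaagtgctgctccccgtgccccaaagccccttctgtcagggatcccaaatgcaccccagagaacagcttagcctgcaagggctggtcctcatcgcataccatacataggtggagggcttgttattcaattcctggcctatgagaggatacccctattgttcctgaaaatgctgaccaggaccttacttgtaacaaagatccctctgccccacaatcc
Tie1 (chr4:118489850-118490099, minus strand): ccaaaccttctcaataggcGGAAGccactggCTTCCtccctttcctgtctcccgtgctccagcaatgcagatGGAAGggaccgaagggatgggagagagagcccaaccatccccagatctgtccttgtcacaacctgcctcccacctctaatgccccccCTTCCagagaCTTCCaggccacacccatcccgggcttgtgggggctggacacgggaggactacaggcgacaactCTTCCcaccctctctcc
The Tie1 window held 6 copies of GGAAG, the Flt1 and Stab1 windows 3 each, the Kdr and Stab2 windows 1 each and the Tek window 0. Of all 32851 promoter windows of this length, 64.1% held at least 1 copy of GGAAG. Other forms of the core were not counted, and the shorter GGAA does lie in the Tek window, as TTCC. Flt1 was the member with a TATAAA box (12.4% of all windows) and with the cAMP response element TGACGTCA (1.55% of all windows). GGGCGG, a KLF and SP site, occurred 2 times in Kdr and 3 times in Flt1 (32.7% of all windows), and the GATA site AGATAA in none of the 6 (9.99% of all windows). Each motif was searched on both strands, overlapping copies counted, and a match is a description of letters, not of binding.

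Total counts ran from 353605 to 5211133 per library, with a median of 2649668. The 8 lung and colon libraries stood apart from the other 52: mitochondrial ribosomal RNA was 0.233% to 0.928% of their counts against 4.33% to 40.6%, and Malat1 0.0151% to 0.0282% against 0.131% to 1.65%. Lung and colon levels carry this difference, whose part in the results was not tested, and calls that change without both tissues are given with the tissue comparisons. Another 6 libraries (female reproductive tract 3 and 4, blood 1, colon 2, liver 4 and brain 3) were less like the others of their tissue or held stray reads of another organ. Reads of genes that 1 organ makes in bulk were found elsewhere at medians of 0.00438% to 0.0242% of the source level and at most 1.21%. Levels are in CPM, each count as a share of its library total on a common scale, adjusted by TMM, a factor that aligns the bulk of genes between libraries. Scaling matters for heart and liver, where few transcripts take much of the library: with plain library totals the median log2 difference of all tested genes from the other 14 tissues moved from -0.12 to -1.38 in heart and from -0.25 to -1.22 in liver. Strand use in counting was not stated in the sources used here, and the 3′ ends of Plvap, Stab1 and Stab2 overlap Gtpbp3, Nt5dc2 and Gm16268 on the other strand, so reads of these partners could add to theirs.

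**Figure D1:**
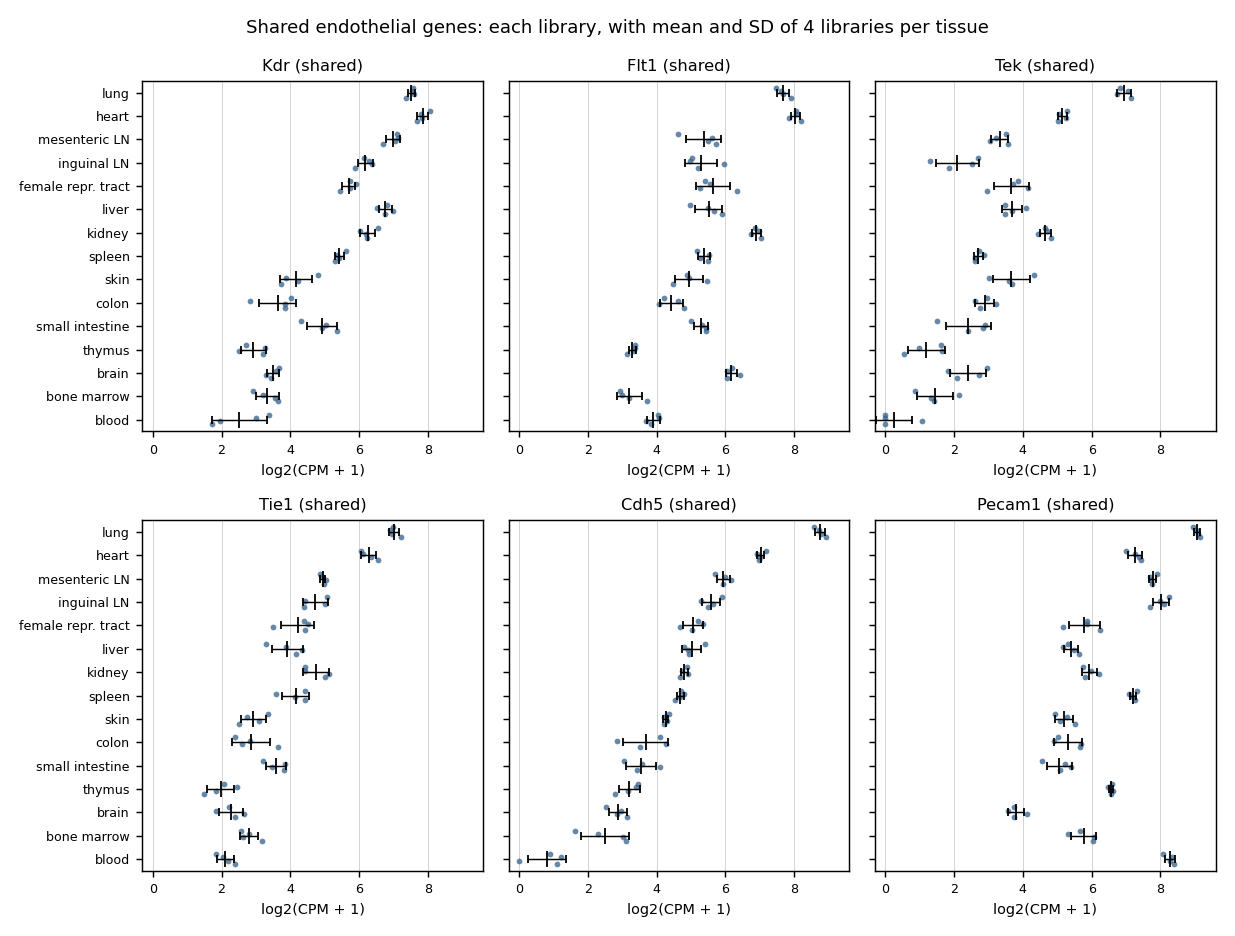
Level of the 6 shared genes, log2(CPM + 1), in each of the 4 libraries per tissue (points), with the mean (tick) and SD (bar). Tissues are ordered by mean Cdh5. Lung and heart lead in Kdr, Flt1, Tek, Tie1 and Cdh5, whereas Pecam1 in blood is second to lung, and Flt1 in brain stands above its neighbours in this order.

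By edgeR's quasi-likelihood test every tissue was set against the mean of the remaining 14, each counted equally. A gene was called where the Benjamini-Hochberg adjusted p was under 0.05 and the log2 difference over 1 in size. Lung had 9 of the 10 members called higher, where 16.8% of all tested genes were. In mesenteric lymph node 8 were higher (17.2% of all genes), in heart 7 higher and 1 lower (20.7% and 12.9%), and in inguinal lymph node 6 higher and 1 lower (17.1% and 6.7%). Kidney had 5 higher and 1 lower (21.8% and 9.51%), and liver 4 higher and 1 lower (18.4% and 16.7%). With library totals in place of TMM, the calls of Stab1 and Lyve1 in heart and of Kdr, Stab1 and Lyve1 in liver were lost. Kdr in kidney was then at 0.76 and not called either. Spleen had 2 higher and 1 lower (17.8% and 9.16%). The lowest levels lay in blood, with 1 member higher and 8 lower (18.1% and 17.8%), bone marrow, with 1 higher and 8 lower (17.6% and 16.1%), thymus, with 8 lower (12.1%), and brain, with 7 lower (16.1%). Cdh5 in thymus was at -0.96 with library totals and not called.

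Colon had 5 members lower (14.4%), which fell to 2 with library totals (1827 of all 18562 tested genes). Skin had 1 higher and 3 lower (18.4% and 6.38%), small intestine 1 of each (19.9% and 8.5%), and the female reproductive tract 0 higher and 1 lower (23.1% and 5.31%). The reproductive tract count was the least stable. With library totals 6 members were higher there (6034 of all 18562 tested genes), and without lung and colon 3 (4184 of 18398). The lower call of the reproductive tract, Plvap, was lost without replicate 2 (-0.92) and without replicate 3 (-0.94). Other calls near the fold limit were lost with 1 replicate number left out: Kdr in skin without 2 or 4 (-0.88 and -0.89), Tie1 in skin without 2 or 4 (-0.99 and -0.84), Kdr in inguinal lymph node without 3 (0.95) and Flt1 in colon without 3 (-0.99). Tek lost its lower call in bone marrow and thymus without replicate 3. This removes the blood library with all Tek reads of that tissue, so a lower call elsewhere is out of reach and no size is given. Of the tested genes, 5450 had no read in at least 1 tissue, and for these a mean over the other tissues on the log scale is not finite, so that a lower call is out of reach in any tissue but the one without reads. Among the 13112 genes with reads in every tissue, the share called lower was 23.3% in blood, 21.8% in bone marrow, 22.3% in brain and 17% in thymus. Stab2 is the only member without a read in a tissue (colon, where it is 1 of the 5 lower members), so its size against the other 14 is not given and its levels are described instead.

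Without lung and colon, whose libraries stood apart, further calls changed against the remaining tissues. Lost were the lower calls of Kdr (-0.93) and Tie1 (-0.87) in skin, of Plvap in the female reproductive tract (-0.76) and of Tek in inguinal lymph node (-0.74). Gained as higher were Cdh5 (1.16), Lyve1 (1.14) and Tek (1.24) in the female reproductive tract, Tek in liver (1.16) and skin (1.25), Plvap in liver (1.01), Pecam1 in heart (1.03), and Tie1 in kidney (1.15) and inguinal lymph node (1.12). Stab2 was then called lower in blood, brain, the female reproductive tract, heart, skin and small intestine, with log2 differences from -2.61 to -4.73.

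**Figure D2:**
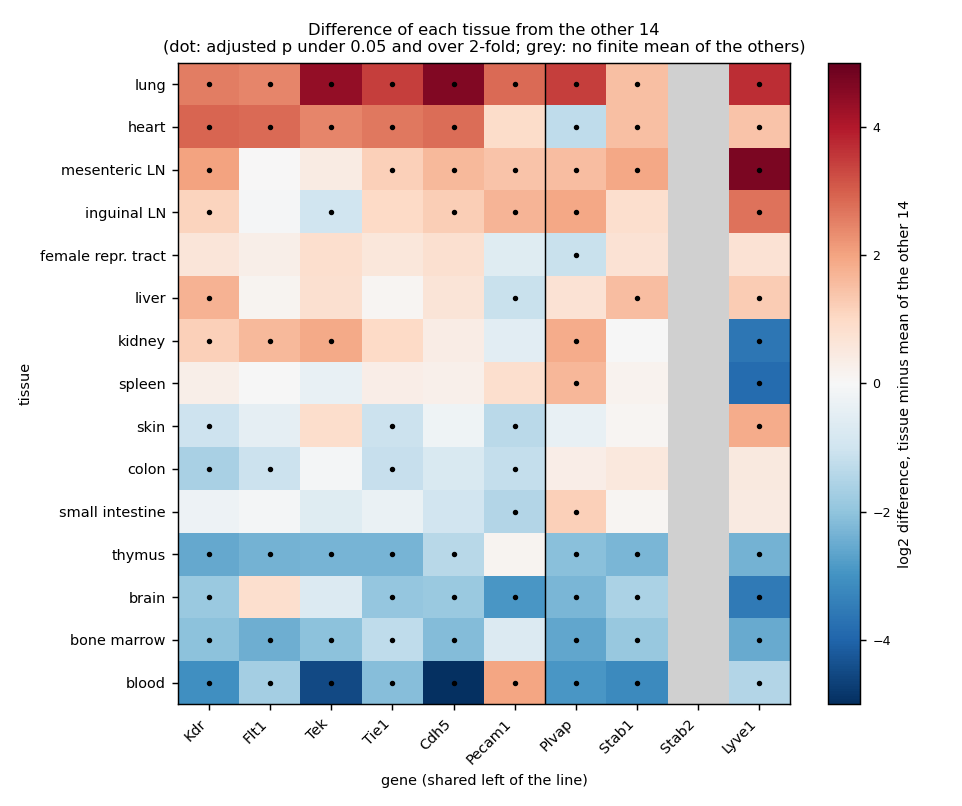
Log2 difference of each tissue (rows) from the mean of the other 14, for each member (columns), from the fit of all 60 libraries; dots mark called differences. Lung and heart are red over nearly all shared genes and thymus, bone marrow and blood blue, with Pecam1 in blood, Flt1 in brain and Plvap in heart against the trend of their rows; Stab2 is grey because colon had no read of it.

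Kdr, on chromosome 5 (75932827 to 75978458, minus strand), was highest in heart, with 267, 224, 227 and 203 CPM in the 4 replicates (mean 230.2 ± 26.97, SD, n = 4). Lung followed with 182 ± 12.6 CPM, mesenteric lymph node with 127 ± 17.2 and liver with 108 ± 13.8. All heart libraries lay above all lung libraries, and all lung libraries above every remaining tissue. At the low end stood blood, with 9.34, 7.08, 2.86 and 2.33 CPM, and thymus, with a mean of 6.80 ± 1.96. Kdr was called higher in 6 tissues and lower in 6, with a log2 difference of 2.92 ± 0.10 (SE) in heart and -3.07 ± 0.23 in blood (edgeR adjusted p = 1.63e-33 and 3.32e-18). From heart to blood the means spanned 42.6-fold, but 12 of the 14 neighbouring tissues in this order overlapped in their libraries.

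Flt1, on the same chromosome (147561604 to 147726011, minus strand), also led in heart, with 262, 262, 232 and 294 CPM, and in lung, with 177, 197, 202 and 239 CPM. The ranges of these 2 tissues overlapped. Kidney came next at 119 ± 11.4 CPM, below every lung library, and then brain, with 71.4, 65.2, 84.6 and 65.6 CPM. Here the VEGF receptors parted: Kdr in brain had 11.7, 11.1, 8.77 and 9.84 CPM and ranked the twelfth of 15 tissues, whereas Flt1 ranked the fourth. Against the other 14 tissues Kdr in brain was called lower (log2 difference -1.87 ± 0.17 SE, edgeR adjusted p = 1.16e-14). Flt1 lay above the mean of the others by a log2 difference of 0.84 ± 0.13 (adjusted p = 8.46e-08), short of the fold needed for a call. In liver the order was the other way round, with Kdr called higher (1.75 ± 0.12) and Flt1 at 0.15 ± 0.16 (adjusted p = 0.506), where library totals gave 0.69 and -0.90. Whether the effect of tissue differed between both receptors was not tested.

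Tek (chromosome 4, 94739289 to 94874976, plus strand) stood out in lung, with 113, 132, 105 and 141 CPM, 3.56 times its mean in the next tissue. Heart held 34.5 ± 3.31 CPM and kidney 24.3 ± 2.78, and these 3 tissues did not overlap with one another or with the rest. Further down the order, from skin (12.3 ± 4.999) to thymus (1.40 ± 0.82), all neighbours overlapped. In blood 3 reads of Tek were found in all, every one of them in replicate 3, which is at the limit of 3 counts set for detection. Tie1 (chromosome 4, 118471191 to 118490061, minus strand) showed lung at 125, 119, 124 and 149 CPM above heart at 65.9, 68.3, 81.0 and 93.2. Mesenteric lymph node (29.8 ± 1.61), kidney (26.5 ± 7.05) and inguinal lymph node (26.2 ± 6.79) formed the next level and overlapped. In inguinal lymph node Tek was called lower (log2 difference -1.004 ± 0.25), while Tie1 was at 0.98 ± 0.13 and not called. Whether the effect of tissue differed between both genes was not tested. Tie1 was called there with library totals (1.36), without lung and colon (1.12), without replicate 2 (1.01) and without replicate 4 (1.10). The Tek call was lost without replicate 2 (-0.82), without lung and colon (-0.74) and with library totals (-0.63). It was also lost without replicate 3, where blood has no Tek read and a lower call is out of reach.

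Cdh5, the junction cadherin that is largely limited to endothelium (chromosome 8, 104101625 to 104144511, plus strand), had 381, 417, 435 and 484 CPM in lung. This was 3.32 times the heart mean of 129 ± 10.6 CPM, and no library of either tissue overlapped with another tissue. The lymph nodes followed, mesenteric at 60.9 ± 7.89 and inguinal at 47.4 ± 8.49 CPM. Brain had 6.42 ± 1.30 CPM and bone marrow 5.15 ± 2.64. Blood had 7 reads in all, with 0.849, 1.33, 0 and 1.16 CPM, the lowest level of any tissue. Lung was higher than the other 14 by a log2 difference of 4.65 ± 0.09 and blood lower by -4.99 ± 0.31 (edgeR adjusted p = 4.16e-46 and 3.37e-21).

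Pecam1 (chromosome 11, 106654217 to 106750628, minus strand) also led in lung, with 493, 518, 540 and 569 CPM, but its second tissue was blood, with 266, 319, 312 and 338 CPM. Inguinal lymph node had 259 ± 40.3 CPM, overlapping with blood, and mesenteric lymph node 217 ± 15.4. Heart (154 ± 20.0) and spleen (147 ± 9.005) came after these and overlapped. Brain was lowest, with 12.3, 10.8, 16.3 and 12.5 CPM. Pecam1 was therefore called higher in blood (log2 difference 1.98 ± 0.09, edgeR adjusted p = 1.85e-27), the tissue where the other 5 shared genes were called lower. Thymus showed a milder form of the same split, with 5 of the 6 shared genes called lower and Pecam1 at 93.7 ± 4.46 CPM (0.14 ± 0.11, adjusted p = 0.293).

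PECAM1 is known to be carried by platelets and many leukocytes as well as by endothelium. In blood all 7 tested platelet and megakaryocyte genes and all 6 leukocyte genes were called higher, where 18.1% of all tested genes were. Summed over the 8 listed platelet genes, blood had 4733 to 7322 CPM, bone marrow 743 to 1135, spleen 173 to 211 and heart 53.4 to 62.1. The platelet integrin Itga2b was at 1117 ± 231 CPM in blood and 2.58 ± 1.29 in heart, the chemokine Pf4 at 2320 ± 466 and 51.4 ± 4.12, and Ppbp at 1562 ± 433 and 1.71 ± 0.91. Summed over the 6 leukocyte genes, blood had 4868 to 5479 CPM, inguinal lymph node 4202 to 5091, spleen 4074 to 4206, thymus 3230 to 3770 and heart 58.97 to 79.04. The pan-leukocyte phosphatase Ptprc was at 708 ± 109 CPM in blood and 1133 ± 126 in thymus, against 11.5 ± 2.59 in heart. Cd52 was at 1067 ± 102 CPM in blood and 8.60 ± 1.06 in heart, and Laptm5 at 1181 ± 111 and 29.1 ± 5.24. No gene of either list was at 0 in blood, and the part of these cells in the level of Pecam1 was not tested.

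**Figure D3:**
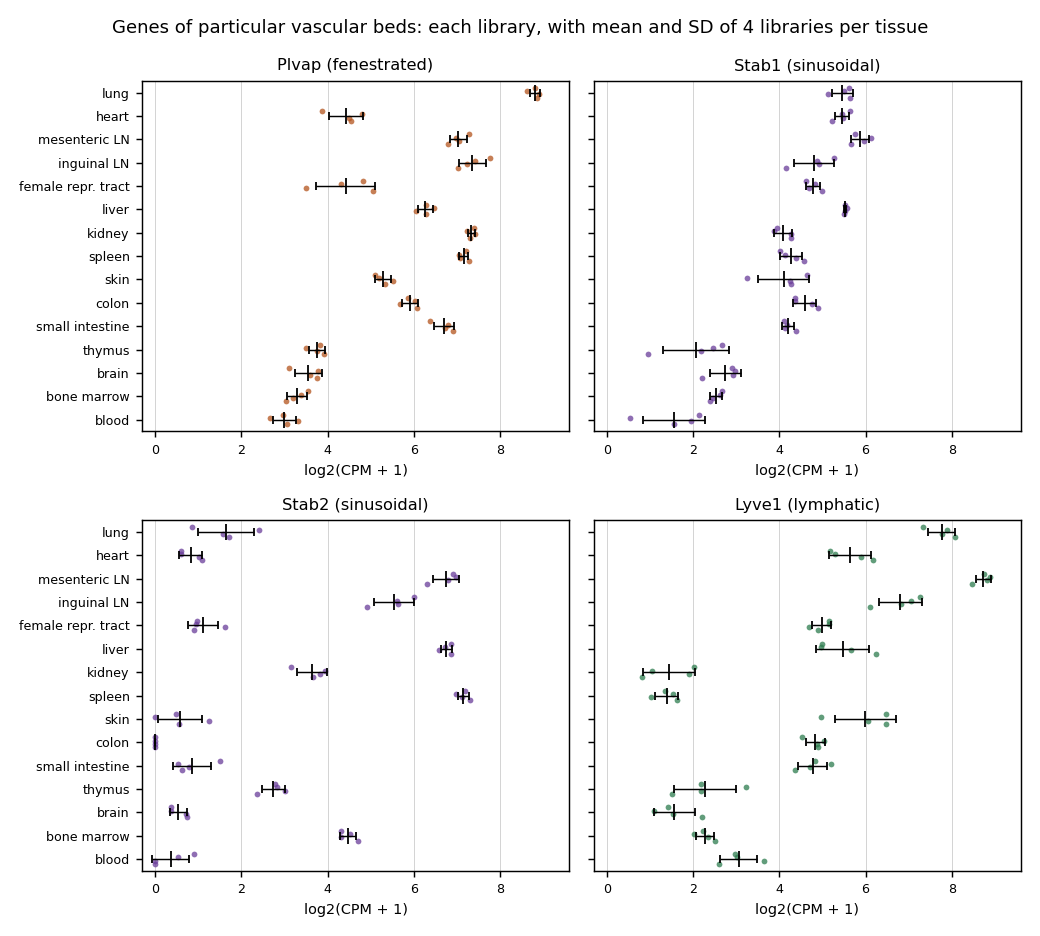
Level of Plvap, Stab1, Stab2 and Lyve1, log2(CPM + 1), in each of the 4 libraries per tissue (points), with the mean (tick) and SD (bar), tissues ordered by mean Cdh5. The order that Cdh5 sets is broken by each gene: heart is low in Plvap, spleen, liver and lymph nodes are high in Stab2 while heart and lung are low, and kidney and spleen are low in Lyve1.

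Plvap (chromosome 8, 71497765 to 71511752, minus strand) was highest in lung, with 451, 399, 483 and 467 CPM, 2.70 times the next tissue. Inguinal lymph node (167 ± 37.7 CPM), kidney (162 ± 9.12), spleen (142 ± 11.1), mesenteric lymph node (131 ± 18.5), small intestine (104 ± 15.7) and liver (76.7 ± 8.86) followed, each overlapping with its neighbour. Heart, the first or second tissue for Kdr, Flt1, Tek, Tie1 and Cdh5, had 13.6, 26.7, 21.5 and 22.5 CPM, and brain 7.53, 12.8, 10.96 and 12.5. Plvap was thus the only member called lower in heart (log2 difference -1.28 ± 0.15, edgeR adjusted p = 2.64e-11). For Stab2 a lower call in heart was out of reach in this fit, and without lung and colon Stab2 was called lower there too. Plvap was called higher in small intestine (1.19 ± 0.10), kidney (1.87 ± 0.09) and spleen (1.67 ± 0.09). Lower calls of Plvap included bone marrow (-2.61 ± 0.17) and thymus (-2.09 ± 0.15). With library totals the small intestine value was 0.99, just under the fold needed.

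Stab1 (chromosome 14, 31139013 to 31168641, minus strand) varied less between tissues than any other member, 26.9-fold from mesenteric lymph node to blood. Mesenteric lymph node had 53.04, 68.6, 61.3 and 49.9 CPM, above all other tissues, and liver (45.04 ± 0.934), lung (43.6 ± 6.85) and heart (43.01 ± 5.05) overlapped behind it. Spleen, an organ of sinusoids, had 18.6 ± 3.49 CPM and overlapped with colon (23.4 ± 4.62) and small intestine (17.4 ± 1.79). Stab1 was called higher in mesenteric lymph node (log2 difference 1.95 ± 0.12, edgeR adjusted p = 7.46e-21), liver (1.56 ± 0.15), lung (1.498 ± 0.16) and heart (1.49 ± 0.14), of which liver and heart were not called with library totals (0.50 and 0.13).

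Stab2 (chromosome 10, 86841198 to 87008025, minus strand) had the most uneven levels. Spleen had 145, 126, 139 and 156 CPM, mesenteric lymph node 120, 126, 111 and 77.7, and liver 116, 105, 94.8 and 115. Spleen did not overlap with mesenteric lymph node, and the latter overlapped with liver. Inguinal lymph node had 63.7, 47.7, 48.5 and 28.99 CPM, bone marrow 18.9, 21.9, 19.01 and 25.3, and kidney 7.82, 14.3, 13.2 and 11.6. Below these lay thymus (5.79 ± 1.22) and lung (2.35 ± 1.47). In colon all 4 libraries had 0 reads, which allows a level of up to 0.681 CPM over the 4 libraries. Against that limit, the mean of spleen was at least 208-fold higher and that of liver at least 158-fold higher. These bounds cover counting error in colon only. Heart, brain, skin and blood had 6, 6, 6 and 2 reads in all. In a fit without lung and colon, where every tissue had reads, spleen differed from the others by a log2 difference of 4.98, mesenteric lymph node by 4.602, liver by 4.57, inguinal lymph node by 3.24, bone marrow by 2.11 and kidney by 1.07, all called. Thymus, at -0.06, was not called in that fit.

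Lyve1 (chromosome 7, 110850607 to 110863239, minus strand) was highest in mesenteric lymph node, with 431, 472, 452 and 357 CPM, 1.93 times lung, which had 160, 237, 218 and 269. Inguinal lymph node had 152, 131, 113 and 67.3 CPM and skin 87.3, 30.4, 65.5 and 88.1, which overlapped. Heart (50.9 ± 17.3) and liver (46.4 ± 20.9) came next. Kidney and spleen, the third and the fourth tissue for Plvap, were at the bottom, with 3.06, 1.05, 2.70 and 0.746 CPM and with 1.54, 1.90, 1.02 and 2.09 CPM. The means spanned 261-fold from mesenteric lymph node to spleen. Called differences were 4.71 ± 0.13 in mesenteric lymph node, 3.70 ± 0.15 in lung, 2.70 ± 0.15 in inguinal lymph node and 1.87 ± 0.17 in skin, and -3.86 ± 0.36 in spleen and -3.61 ± 0.36 in kidney on the log2 scale (edgeR adjusted p = 2.88e-38 for the first and 3.69e-13 for the last). In liver the call (1.28 ± 0.21) was lost without replicate 4 (0.97) and with library totals (0.22).

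The adipocyte gene Adipoq, examined after its values were seen, was at 18.1, 0.422, 201 and 206 CPM in inguinal lymph node and at 141, 406, 474 and 890 CPM in mesenteric lymph node. Within inguinal lymph node Stab2 and Lyve1 were lowest in replicate 4. Replicate 3, with nearly as much Adipoq, had 48.5 CPM of Stab2 and 113 of Lyve1, against 47.7 and 131 in replicate 2. Replicate 1, with 18.1 CPM of Adipoq, was highest in both, at 63.7 and 152. In mesenteric lymph node, replicate 4 had the most Adipoq and was lowest in both, at 77.7 and 357. Replicate 1 there had the least Adipoq, with 120 and 431, below replicate 2 with 126 and 472. The part of fat tissue in the lymph node values was not tested.

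Another 7 pairs of tissues, whose vessels differ in wall type or which are related organs, were compared within the same fit. Between brain and heart, both with a continuous lining, 8 members were lower in brain (20.9% of all tested genes were). They ran from Flt1 at -1.87 ± 0.19 to Lyve1 at -4.61 ± 0.38. With library totals Flt1 was at -0.61 and not called. Plvap differed by -0.95 ± 0.20, with library totals 0.31. Lung exceeded heart in 5 members (19.4%): Plvap by 4.42 ± 0.17, Lyve1 by 2.12 ± 0.25, Tek by 1.83 ± 0.22, Pecam1 by 1.78 ± 0.15 and Cdh5 by 1.73 ± 0.15. Kdr and Flt1 were not called between lung and heart (-0.34 and -0.36) and turned to 1.28 and 1.25, both called, with library totals. Kidney against lung had 1 member higher and 8 lower (25.1% and 17.2%), where Stab2 was higher by 2.32 ± 0.38, Lyve1 lower by -6.81 ± 0.36 and Flt1 at -0.78 ± 0.18 not called.

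Liver against spleen, both organs with sinusoids, had 4 members higher and 1 lower (21.1% and 26.3%). Lyve1 was higher in liver by a log2 difference of 4.80 ± 0.40 and Pecam1 lower by -1.82 ± 0.17 (edgeR adjusted p = 4.07e-16 and 1.27e-14). Kdr (1.36 ± 0.18), Stab1 (1.27 ± 0.21) and Tek (1.12 ± 0.32) were higher in liver with TMM, but with library totals they were at 0.02, -0.07 and -0.22, and Flt1 changed from 0.18 to a called -1.17. Bone marrow had 9 members lower than spleen (17.8%), Plvap by the most (-4.00 ± 0.19), and Lyve1 at 1.24 ± 0.58 was the exception (adjusted p = 0.0757). Mesenteric exceeded inguinal lymph node in 4 members (5.5%): Lyve1 by 1.88 ± 0.22, Tek by 1.32 ± 0.29, Stab2 by 1.19 ± 0.16 and Stab1 by 1.03 ± 0.18, the last of which fell to 0.99 without replicate 4. Small intestine against colon had 2 members higher (15.6%), Kdr by 1.29 ± 0.26, with library totals 0.76, and Stab2. The Stab2 call rested on 8 reads against 0 (edgeR adjusted p = 0.0404) and was lost when any 1 replicate was left out. The 95% counting interval of Stab2 in small intestine, 0.379 to 1.73 CPM, included the colon limit of 0.681 CPM, so no least fold is given.

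To follow each bed gene relative to an endothelial gene, it was set against Cdh5 within a library, as log2((gene CPM + 1)/(Cdh5 CPM + 1)). Apart from the added 1 CPM this ratio does not depend on library scaling, which matters where a gene is near 0: for Stab2 between lung and heart it moved from -0.90 to -1.85 with library totals. Only its change between tissues has a meaning, since reads of 2 genes are not compared by amount. In the 7 pairs, 18 of 28 differences passed a two-sided exact permutation test (adjusted p = 0.0444, from p = 0.0286, the smallest that 4 against 4 libraries allow). How many ratios of other genes to Cdh5 would pass was not examined, so this count is not read as particular to these genes. For Plvap, the ratio was 0.68 ± 0.11 (SD, n = 4) in brain, 0.07 ± 0.15 in lung, 2.54 ± 0.06 in kidney and -2.60 ± 0.51 in heart. It was thus higher in lung than in heart by 2.67 ± 0.26 (SE) and in kidney than in lung by 2.47 ± 0.08. Brain exceeded heart in this ratio by 3.27 ± 0.26, although the level of Plvap itself was lower in brain. That gap combines a Plvap difference of -0.95 ± 0.20, not called and 0.31 with library totals, and a Cdh5 difference of -4.33 ± 0.20. The gap between kidney and lung depended on the reference and was 0.80 with Tie1, still past the threshold, while that between liver and spleen (-1.22 ± 0.20) was -0.65 and did not pass with Tie1. Small intestine had the highest ratio, 3.17 ± 0.38, which did not differ from colon at the threshold (difference 0.93 ± 0.44, exact permutation adjusted p = 0.08).

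**Figure D4:**
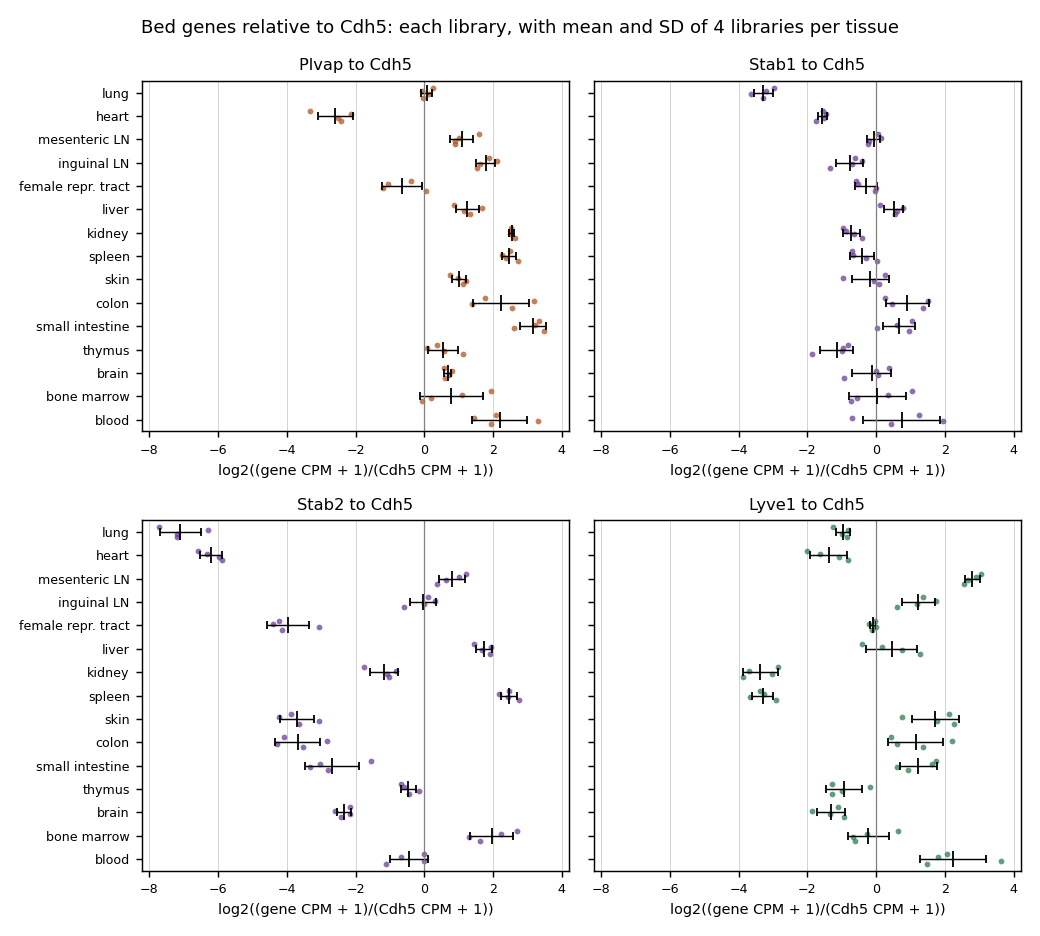
Log2 ratio of each bed gene to Cdh5 in each of the 4 libraries per tissue (points), with the mean (tick) and SD (bar); the vertical line marks 0. Heart is lowest for Plvap, at -2.60, lung is lowest for Stab1 and Stab2, at -3.28 and -7.10, and kidney and spleen are lowest for Lyve1, at -3.37 and -3.30.

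For Stab1 the ratio to Cdh5 was highest in colon (0.90 ± 0.63) and lowest in lung (-3.28 ± 0.28), and it was higher in liver than in spleen by 0.92 ± 0.22. For Stab2 it was highest in spleen (2.46 ± 0.23), bone marrow (1.97 ± 0.63) and liver (1.74 ± 0.22). Stab1 in kidney exceeded lung by 2.56 ± 0.19, and by 0.89 with Tie1. Bone marrow and spleen differed 6.64-fold in the level of Stab2 but by only -0.50 ± 0.33 in this ratio (exact permutation adjusted p = 0.3). With Tie1 in place of Cdh5 that difference passed, at -1.33. Liver lay below spleen by -0.72 ± 0.16, a difference that was -0.15 and did not pass with Tie1. The gap between kidney and lung was 5.94 ± 0.36 and that between brain and heart 3.86 ± 0.19, but in brain, heart and lung the level of Stab2 was near the offset of 1 CPM. The ratio gap between kidney and lung combines more Stab2 (2.32 ± 0.38) and less Cdh5 (-3.99 ± 0.17) in kidney.

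For Lyve1 the ratio to Cdh5 was highest in mesenteric lymph node (2.79 ± 0.22), above inguinal lymph node by 1.57 ± 0.26. Liver exceeded spleen by 3.75 ± 0.40 and bone marrow exceeded spleen by 3.07 ± 0.33. Lung and heart did not differ at the threshold (0.41 ± 0.29, exact permutation adjusted p = 0.3), but with Tie1 or with the mean of all 6 shared genes as the reference lung was higher, by 1.39 and 1.24. Brain and heart were at -1.31 ± 0.40 and -1.39 ± 0.54 (adjusted p = 0.886). Blood had ratios of 2.19 for Plvap and 2.25 for Lyve1, with Cdh5 at or below 1.33 CPM in each library, so no order is read from them.

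Other genes of these vessels, taken from lists, were read against the same tests. Of 18 further shared endothelial genes, 18 were called higher in lung (median log2 difference 3.66, all tested genes -0.23; 16.8% of all genes higher) and 16 in heart (2.03, all genes -0.12; 20.7% higher). In brain 9 of these 18 were lower (16.1% of all tested genes were), and in thymus 13 lower and 1 higher (12.1% and 18.9%). Bone marrow had 13 lower and 2 higher (16.1% and 17.6%), and blood 14 lower and 3 higher (17.8% and 18.1%). The 3 that rose in blood were Vwf at 334 ± 48.7 CPM, Icam2 at 128 ± 33.2 and Esam at 86.6 ± 15.4, all known also from platelets or leukocytes. For the growth factors that these receptors bind, 6 of 7 tested VEGF and angiopoietin ligands were higher in lung, 5 in heart and 5 in kidney, where 16.8%, 20.7% and 21.8% of all tested genes were. Vegfa, the main ligand of KDR, was at 532 ± 32.4 CPM in lung, 301 ± 30.8 in heart and 159.6 ± 5.65 in kidney, and Vegfb, which binds FLT1 but not KDR, was at 657 ± 41.7 CPM in heart and 94.6 ± 4.38 in brain. Liver had Vegfa higher and 3 ligands lower (18.4% and 16.7% of all genes).

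Of 12 genes known from liver sinusoidal endothelium, 11 were higher in liver, 10 in spleen and 8 in mesenteric lymph node, where 18.4%, 17.8% and 17.2% of all tested genes were. Skin had 6 higher (18.4%), blood 5 higher and 1 lower (18.1% and 17.8%), and bone marrow 4 higher and 3 lower (17.6% and 16.1%), with Stab2 low in skin and blood. Clec4g was at 113 ± 13.3 CPM in liver, 16.97 ± 3.23 in mesenteric lymph node and 10.9 ± 3.21 in spleen, and Dnase1l3, a secreted nuclease, at 174 ± 11.4, 229.7 ± 61.5 and 235 ± 7.17. Several of these genes, such as Mrc1 and Fcna, are also macrophage genes. Of 11 tested macrophage genes, 11 were higher in spleen, 8 in mesenteric lymph node and 4 in liver, against the same shares of all genes (17.8%, 17.2% and 18.4%). The macrophage gene Adgre1 was at 34.4 ± 4.08 CPM in spleen and 14.6 ± 5.05 in liver, Csf1r at 261 ± 17.3 and 67.7 ± 5.04, and Cd68 at 84.8 ± 3.17 and 18.7 ± 4.97. Summed macrophage genes reached 1432 to 1519 CPM in spleen, 1021 to 1534 in mesenteric lymph node, 608 to 758 in liver and 185 to 202 in kidney. Of the 12 listed, Vsig4 was at 0 in mesenteric lymph node and kidney and Folr2 in spleen. STAB1 is known on some macrophages too, and their part in the levels of Stab1 and Lyve1 was not tested. Of 9 tested lymphatic genes, 6 were higher in mesenteric and 4 in inguinal lymph node (17.2% and 17.1% of all genes), with Prox1, the master factor of lymphatic fate, at 65.7 ± 14.8 and 17.4 ± 6.35 CPM, though liver (229.5 ± 32.7) and heart (178.5 ± 23.2) had more.

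Across the 15 tissue means of log2(CPM + 1), Kdr, Flt1, Tek, Tie1 and Cdh5 correlated with one another at Pearson r from 0.77 to 0.94 (median 0.85), and Pecam1 with these 5 at 0.18 to 0.55. Plvap stood at 0.50 to 0.70 with these 5 genes, Stab1 at 0.64 to 0.89, Lyve1 at 0.31 to 0.65 and Stab2 at -0.09 to 0.37. The points are tissues that share libraries and scaling, so these values are descriptions. The genes most like each member were Ushbp1, Robo4 and Sox18 for Kdr, Nes, Slc9a3r2 and Arhgef15 for Flt1, Pdgfd, Adgrf5 and Nes for Tek, Ccm2l, Eng and Ushbp1 for Tie1, and Rasip1, Adcy4 and Egfl7 for Cdh5, with r from 0.92 to 0.97 over 15 tissues. Icam2, Klf2 and Fmnl3 came nearest to Pecam1 (0.91 to 0.94), and Flt4, Mmrn2 and Cpq to Stab1 (0.91 to 0.94). The bed genes had less close matches: Tmem176b, Cyp4b1 and Tmem176a for Plvap (0.84 to 0.86), Tbx1, Meox2 and Slc10a6 for Lyve1 (0.78 to 0.84), and F8, Il18bp and Serpina3f for Stab2 (0.83 to 0.86). F8 encodes coagulation factor VIII, which endothelial cells, liver sinusoids among them, are known to make.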

How the data were processed

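Read counts per gene were deposited by the authors as 1 combined table of 54532 annotated genes in 60 libraries. FastQC, STAR, featureCounts and the mm10 build are named in the submitters' processing notes, without versions, and the sources used here do not state the strand setting. Molecular identifiers are not described, so intervals and detection limits cover counting error only. Total counts per library ran from 353605 to 5211133.

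From these counts, genes with at least 10 counts in enough libraries for 1 tissue (edgeR's filterByExpr, 15 in total) were kept, 18562 in all. TMM factors and CPM were computed with edgeR 4.0.16 in R 4.3.3. The quasi-likelihood model was fitted to all 60 libraries, with each tissue set against the equally weighted mean of the other 14, and with 7 pairs of tissues. P-values were adjusted over all tested genes by the Benjamini-Hochberg method, and the threshold was 0.05 with an absolute log2 fold change above 1. Ratios to Cdh5, with 1 CPM added to each gene, were compared by exact permutation in SciPy 1.17.1, adjusted over 28 tests. Alternatives were DESeq2 size factors, library totals, no filter, a replicate block, DESeq2's Wald test (version 1.42.0), each replicate left out, a pseudocount of 0.25 and other reference genes. Leaving out 6 libraries, or lung and colon, was chosen after seeing the data.

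The members, lists and pairs were chosen with earlier results of these data known. All members were named, with the 3 genes most correlated with each over 15 tissue means among genes reaching 10 CPM. For lists of other cell types the first 3 genes are given. Clec4g, Dnase1l3, Prox1, Vegfa and Vegfb were picked as examples after their values were seen. Gene positions are from GENCODE release M21 and promoters from RefSeq.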

Additional observations from a re-analysis of the deposited data

Results flagged for a closer look

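Of 150 groups of 4 libraries (10 genes in 15 tissues), 4 held a library whose gap to the nearest of the others was large for the range of its group, where chance gives about 7.5, or 1 in 20 groups. Tek in blood replicate 3 was at 1.07 CPM, from 3 reads, while the other 3 blood libraries had 0. Tie1 in female reproductive tract replicate 3 was at 10.4 CPM, from 5 reads, below 20.1 to 22.05 in the others. Stab1 in brain replicate 4 was at 3.61 CPM, from 11 reads, below 6.42 to 6.81. Stab2 in female reproductive tract replicate 3 was at 2.07 CPM, from 1 read, above 0.848 to 0.967.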

How the results depend on the processing

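Calls of members against the other tissues numbered 91 in all and 88 to 97 under the alternatives, and calls between pairs 42 and 41 to 46. Library totals changed the most. They gave 2 members lower in colon, 6 higher and 0 lower in the female reproductive tract, 0 lower in inguinal lymph node, 1 higher in liver, 2 higher and 1 lower in skin, 0 higher and 2 lower in small intestine and 1 higher in thymus. Of all 18562 tested genes, 1827 were then lower in colon and 716 in inguinal lymph node. The female reproductive tract had 6034 higher and 412 lower, and skin 3792 and 953. Liver had 1812 higher, thymus 5520, and small intestine 3190 higher and 2123 lower. Between pairs library totals gave 10 members higher in lung than in heart, where 9725 of all 18562 genes were. Liver had 1 member higher and 5 lower than spleen (2006 and 10323 of all genes). Small intestine had 0 higher than colon (1726 of all genes). Library totals reversed Kdr and Flt1 between lung and heart (1.28 and 1.25) and Flt1, Tek and Stab1 between liver and spleen (-1.17, -0.22 and -0.0702). The median of all genes moved by as much in these pairs, from -0.03 to 1.34 and from -0.21 to -1.53. In all, 39 values changed sign under some alternative, 34 of them called in neither fit. DESeq2 size factors gave 0 lower in the female reproductive tract and 2 lower in small intestine. No filter gave 2 lower in small intestine, 1 higher in bone marrow than in spleen and 1 higher in small intestine than in colon. DESeq2's Wald test gave 2 lower in heart, 3 lower in small intestine, 1 higher in bone marrow than in spleen and 1 higher in small intestine than in colon. Without the 6 libraries that stand apart, 2 were lower in small intestine. Without lung and colon, 3 were higher in the female reproductive tract, 2 lower in heart, 0 lower in inguinal lymph node, 2 higher in skin and 2 lower in small intestine. With 1 replicate left out at a time, counts ran from 0 to 1 (higher and lower in the female reproductive tract, lower in inguinal lymph node, higher in bone marrow than in spleen), from 1 to 2 (higher in skin, lower in small intestine, higher in small intestine than in colon) and from 1 to 3 (lower in skin). The replicate block gave 1 member higher in small intestine than in colon in place of 2 and moved no other count by over 1.5 times. Same-numbered libraries of 2 tissues correlated in their deviations at a mean r of 0.0156, above 0.1 in 7 of 420 pairs, and 48 of 60 libraries correlated best with their own number, a hint from the data only. Of the 28 ratio differences, 18 passed in the main form and 19 or 20 with the other offset, scaling or reference genes. With 3 libraries a group the exact permutation test cannot pass the threshold, so those values carry no test. The cause of these changes was not tested. Depth limits Stab2 most, with under 10 reads in 6 tissues, and Tek and Cdh5 in blood, with 3 and 7 reads.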
